A study of Mus musculus with 30 samples.

Results

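The 9 genes described here encode adhesion and homing receptors of blood cells: the integrin chains Itga4, Itga5, Itga6, Itgal, Itgb1 and Itgb2, the chemokine receptor Cxcr4, the hyaluronan receptor Cd44 and the selectin ligand Selplg. They were chosen by gene symbol, and all 9 were found in each of the 3 tables, among 11740 genes in LSK cells, 11275 in bone marrow and 20619 in cultured stromal cells. The 30 RNA sequencing libraries came from C57BL/6 mice that model myeloid neoplasms arising after cytotoxic therapy.

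LSK cells, the sorted marrow fraction enriched for stem and progenitor cells, came from 4 groups of 3 libraries. EAP with ENU held marrow haploinsufficient for Egr1 and Apc (Egr1+/-, Apc del/+) and carrying a Trp53 shRNA, with the mutagen N-ethyl-N-nitrosourea (ENU) given to donor and recipient. EAP held the same marrow without ENU, and transplanted WT held wild type marrow with a luciferase shRNA. These groups were transplanted into wild type recipients and sorted about 2 months later, before disease. WT held wild type marrow without transplant, shRNA or ENU. The WT labels nonetheless give a time of 2 months after transplant, as in the other LSK groups. In transplanted WT against WT, transplant and luciferase shRNA go together and cannot be told apart. For EAP 1, the transplant label names wild type marrow while its haploinsufficiency and shRNA labels name EAP. It was kept in EAP. Whole bone marrow came from 6 mice with acute myeloid leukaemia (AML) and 6 with myelodysplastic syndrome (MDS). All 12 carried Egr1+/-, Apc del/+ marrow in wild type recipients. The AML marrow carried the Trp53 shRNA and the MDS marrow the luciferase shRNA, so disease and knockdown cannot be told apart. ENU was given to donor and recipient in AML 1, 4, 5 and all MDS mice, to the recipient alone in AML 6, and to neither in AML 2 and 3. Stromal cells were grown from compact bone of untransplanted wild type mice, 3 given 100 mg/kg ENU and 3 mock-treated with 10% ethanol 1 month earlier, and used at early passage. The sources used here do not give ages, sexes or the promoters of the shRNAs. The marrow libraries carry different mouse tags. Nothing in the labels says whether LSK or stromal libraries of a group came from separate mice, so p-values measure the spread between these libraries, which may be technical.

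Integrins are pairs of one alpha and one beta chain that bind matrix proteins or receptors on other cells after activation from inside the cell. The alpha4 beta1 pair (VLA-4) binds VCAM-1 and fibronectin on marrow stroma, alpha5 beta1 binds fibronectin, alpha6 beta1 binds laminin, and alphaL beta2 (LFA-1) binds the ICAMs. CXCR4 is the receptor for CXCL12 made by marrow stroma and is known for holding stem cells and neutrophils in the marrow. CD44 binds hyaluronan, and PSGL-1, the product of Selplg, binds P-, E- and L-selectin on vessel walls and leukocytes. Together these receptors guide the steps by which transplanted cells leave the blood, enter the marrow and stay there.

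The promoters of 4 members are shown because, among the 5 members with a promoter sequence at hand, they formed the pairs whose values varied most alike: Itga4 and Cd44 over LSK libraries (Pearson r = 0.95), and Itga5 and Itgb1 over marrow libraries (0.94). The sequences are the 250 bases before the RefSeq start on GRCm38.p6, written 5′ to 3′ on the strand of the gene. Capitals mark 3 motifs searched on both strands: GAGGAA, which reads TTCCTC on the opposite strand and is found in sites of the myeloid factor PU.1; TGTGGT, which reads ACCACA there and is found in sites of RUNX factors; and GGGCGG, which reads CCGCCC there and is found in sites of Sp1. No match overlapped another. The Itga4 stretch lies at chr2:79255176-79255425 on the plus strand, Cd44 at chr2:102901666-102901915 on the minus strand, Itga5 at chr15:103366792-103367041 on the minus strand and Itgb1 at chr8:128685404-128685653 on the plus strand.
Itga4: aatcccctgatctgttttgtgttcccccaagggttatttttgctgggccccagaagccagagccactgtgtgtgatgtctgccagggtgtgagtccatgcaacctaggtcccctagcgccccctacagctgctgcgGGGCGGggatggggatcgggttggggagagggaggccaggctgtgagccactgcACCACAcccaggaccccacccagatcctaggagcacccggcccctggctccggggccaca
Cd44: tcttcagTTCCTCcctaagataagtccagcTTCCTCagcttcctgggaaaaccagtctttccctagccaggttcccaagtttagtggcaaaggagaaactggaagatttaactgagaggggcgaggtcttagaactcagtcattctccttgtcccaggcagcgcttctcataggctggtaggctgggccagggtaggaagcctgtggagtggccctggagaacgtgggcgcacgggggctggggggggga
Itga5: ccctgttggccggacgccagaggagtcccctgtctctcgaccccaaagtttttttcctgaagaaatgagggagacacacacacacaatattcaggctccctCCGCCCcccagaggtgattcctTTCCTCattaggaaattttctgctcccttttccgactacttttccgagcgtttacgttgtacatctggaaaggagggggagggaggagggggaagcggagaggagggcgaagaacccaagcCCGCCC
Itgb1: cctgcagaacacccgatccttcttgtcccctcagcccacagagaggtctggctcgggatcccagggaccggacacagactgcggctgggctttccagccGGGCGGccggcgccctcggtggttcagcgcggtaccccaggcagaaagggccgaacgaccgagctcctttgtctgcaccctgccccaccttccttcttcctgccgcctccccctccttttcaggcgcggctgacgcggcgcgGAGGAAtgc
The Itga4 stretch held 1 TGTGGT and 1 GGGCGG, and Cd44 held 2 GAGGAA and neither of the others. Itga5 held 1 GAGGAA and 2 GGGCGG, and Itgb1 held 1 of each of these. Of 32851 RefSeq mouse promoter stretches of the same length, 23.3% held GAGGAA, 14.0% TGTGGT and 32.7% GGGCGG, so each motif is common. The pair that varied alike in LSK cells shared no motif of the 3, while the marrow pair shared GAGGAA and GGGCGG. These matches are letters in a window and no record of binding.

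The deposited values are normalised values for LSK cells and bone marrow, on scales set separately by the authors, and TPM, a unit corrected for transcript length, for stromal cells. Log2 changes below are of value + 1 and come from limma, with p-values adjusted over every gene of the table and a threshold of 0.05. Across 7 comparisons, 1 member passed in 1 comparison: Itga4 fell in AML with ENU relative to AML without ENU. There 46 of the 11275 genes tested, or 0.408%, passed, and 0.124% passed in the lower direction. None of the 9 members passed in EAP against transplanted WT, where 0.0256% of genes passed, in EAP with ENU against transplanted WT (0.0171%), or in transplanted WT against WT (0.0256%). None passed in EAP with ENU against EAP, where limma called 0.0% of genes at the adjusted threshold and 617 genes (5.26%), 2 of them members, had an unadjusted p under 0.05. None passed in AML against MDS, where limma called 3.2% of genes and edgeR, run on reads recovered from the deposited values, called none of the 9 either. In the stromal comparison 6 members could be tested, none passed, and 0.0% of all genes did, with 312 genes (2.58%) and no member at an unadjusted p under 0.05. With the library number as a block, 1213 stromal genes had an unadjusted limma p under 0.05. With a term for sex, inferred from the Y chromosome genes Ddx3y, Eif2s3y, Kdm5d and Uty, 1604 did. No gene passed in either fit. No member was free of overlap there, against 7.07% of all genes. The members at an unadjusted p under 0.05 in limma elsewhere were 1 in EAP against transplanted WT (3.61% of all genes), 0 in EAP with ENU against transplanted WT (3.21%), 0 in transplanted WT against WT (7.29%), 1 in AML against MDS (29.3%) and 2 in AML with ENU against AML without ENU (12.5%).

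**Figure D1:**
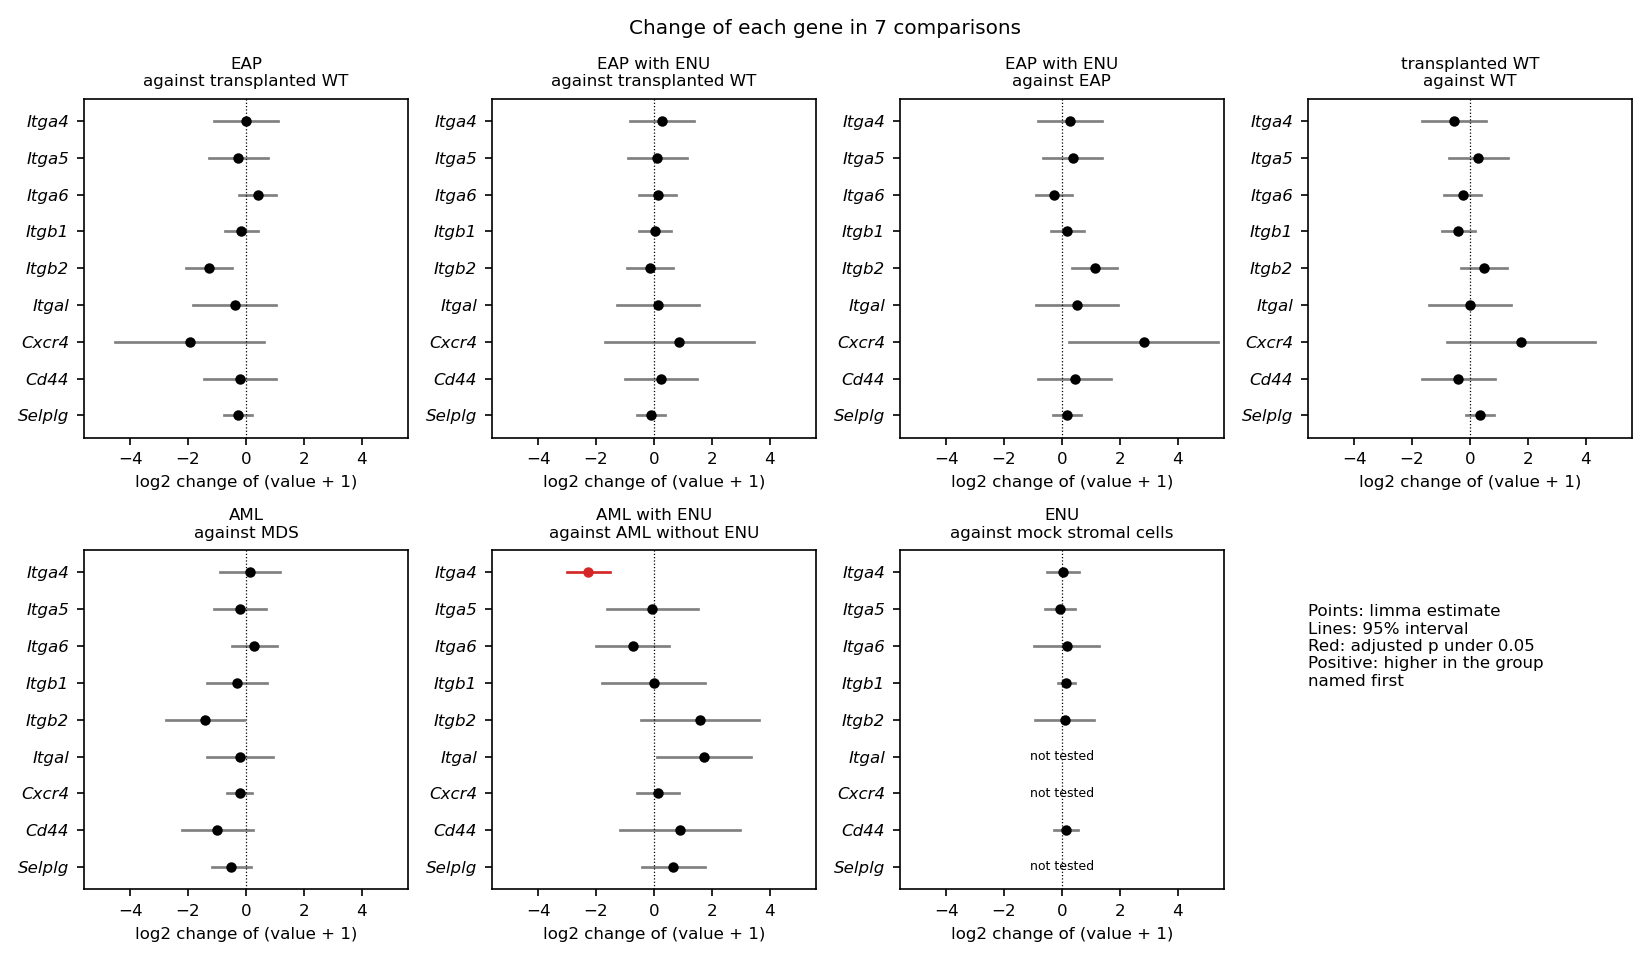
log2 change of each of the 9 genes in 7 comparisons, with points for the limma estimate on log2(value + 1) and lines for its 95% interval. Red marks an adjusted p under 0.05, reached by Itga4 alone at -2.26 in AML with ENU against AML without ENU. Itgal, Cxcr4 and Selplg were too low to test in stromal cells.

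Libraries within a group differed in several measures, and the part of RNA quality or cell makeup in them was not tested. In 3 LSK libraries, EAP 1, transplanted WT 3 and WT 2, genes with transcripts of at least 4000 bases were low relative to those of at most 1500 bases: the difference of the medians was -1.52, -0.95 and -0.67 on the log2 scale, against -0.17 to 0.72 in the other 9. EAP 1 also had the lowest Kit, a defining gene of the sort, at 65.3 (158 to 598 in the other 11). By its correlation with the other libraries, EAP 1 stood apart in the LSK table, AML 3 in the marrow table and none in the stromal table. Recovered reads numbered 17341986 to 21698808 per marrow library, and the members' values there rest on at least 329 reads each. Depth is unknown for LSK and stromal libraries. The 10 mesenchymal markers summed to 1997 to 5857 TPM in ENU cells and 4016 to 6627 TPM in mock cells, none at 0.

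The beta2 chain Itgb2 (chr10:77530252-77565708, plus strand, GRCm38) is the common chain of the leukocyte integrins LFA-1 and Mac-1 and was the member with the smallest p in EAP against transplanted WT. Its normalised values were 46.7, 40.7 and 58.5 in EAP with ENU, 13.6, 26.1 and 27.4 in EAP, 40.2, 68.3 and 54.6 in transplanted WT, and 54.1, 23.3 and 41.4 in WT. All 3 EAP libraries lay below all 3 libraries of EAP with ENU and of transplanted WT, while the WT libraries overlapped each group. EAP averaged 22.4 ± 7.64 and transplanted WT 54.4 ± 14.1 (SD, n = 3 each). The log2 change was -1.27 ± 0.36 (SE; limma adjusted p = 0.967). In that comparison 3.18% of all genes were lower in EAP without overlap. EAP with ENU averaged 48.6 ± 9.08 (SD, n = 3), 1.13 ± 0.36 (SE) above EAP on the log2 scale, with a limma p of 0.00892 and an adjusted p of 0.909. In that comparison 6.68% of all genes were higher in EAP with ENU without overlap. Against transplanted WT, EAP with ENU differed in Itgb2 by -0.14 on the log2 scale (95% interval -0.93 to 0.65). These comparisons share libraries, so the difference of EAP from both neighbours rests on the same 3 EAP libraries. Without the 3 LSK libraries low in long transcripts the log2 change of Itgb2 was -0.95 in EAP against transplanted WT (limma adjusted p = 0.304) and 0.82 in EAP with ENU against EAP (adjusted p = 0.123); over 14 alternatives the adjusted p ran between 0.103 and 1.0 in the first and between 0.123 and 1.0 in the second. Without EAP 1 alone the changes were -0.96 and 0.82. The sums of 8 neutrophil markers beside these values were 5794 to 8043 in EAP with ENU, 2330, 2548 and 16240 in EAP, with EAP 1 highest, and 2526 to 6453 in transplanted WT. Nearly all of each sum came from Mpo and Elane, while Camp, Ltf, Ngp, Retnlg and S100a9 stayed under 10 in every library, and S100a8 did so in all but EAP 1. Of the 8, Camp, Ltf, Ngp, Retnlg, S100a8 and S100a9 were at or near 0 in at least 1 library. EAP 1 had the lowest Itgb2 and the highest sum, and the part of such cells in the result was not tested.

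Its partner Itgal (chr7:127296260-127335138, plus strand), the alphaL chain that completes LFA-1, showed no separation of LSK groups. Itgal values were 57.2, 45.8 and 53.2 in EAP with ENU, 13.5, 68.5 and 47.5 in EAP, 55.0, 70.3 and 26.4 in transplanted WT, and 80.8, 17.5 and 72.1 in WT. All groups overlapped, and the lowest library of each group that held one was a library low in long transcripts. The log2 change was -0.39 ± 0.65 (SE) in EAP against transplanted WT, with a 95% interval of -1.81 to 1.04. It was 0.53 ± 0.65 (SE) in EAP with ENU against EAP, so both estimates had the sign of those of Itgb2. Without EAP 1 they were 0.28 and -0.14, the opposite signs. With a term for the long-transcript shift, added after seeing the data, they were -0.53 (limma adjusted p = 0.258) and 0.39 (adjusted p = 0.252). Whether the chains differ in their change was not tested.

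In bone marrow Itgb2 values were 1692, 666 and 430 in AML with ENU, 306 in AML 6, 1040 and 64.7 in AML without ENU, and 944 to 1557 with a median of 1230 in MDS. The AML libraries reached above and below the MDS range, with 4 of 6 below every MDS library. AML averaged 700 ± 589 and MDS 1254 ± 201 (SD, n = 6 each), and the log2 change was -1.41 ± 0.62 (SE; limma adjusted p = 0.153). In this comparison 3.84% of all genes did not overlap and no member was among them. Without AML 1, the AML library with the highest Itgb2, the log2 change was -1.79 and the adjusted p in limma 0.0428, in a fit that called 2472 genes against 361 with all libraries; without AML 3 it was -0.85 (adjusted p = 0.180). With AML 1, 4 and 5 alone against MDS, which matches ENU exposure, it was -0.66 (adjusted p = 0.274), and over 19 alternatives the adjusted p ran between 0.0428 and 0.307.

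The fold range of Itgb2 was 26.1 over the 12 marrow libraries, the widest of the 9 members, and both its ends lay in AML. Summed neutrophil markers were 113976, 15579 and 26252 in AML 1, 4 and 5, 7922 in AML 6, 17590 and 428 in AML 2 and 3, and 57460 to 92198 in MDS. AML 1 and AML 3, highest and lowest in Itgb2, were also highest and lowest in that sum of 10 markers, none of which was at 0. In whole marrow, fewer cells of a type and less RNA per cell cannot be told apart, and the part of cell makeup in these results was not tested. Itgam, the alpha chain that forms Mac-1 with beta2, gave 2426, 473 and 659 in AML 1, 4 and 5, 305 in AML 6, 1433 and 12.1 in AML 2 and 3, and 1434 to 2069 in MDS.

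Itgal in marrow gave 609, 777 and 299 in AML with ENU, 380 in AML 6, 483 and 50.8 in AML without ENU, and 308 to 488 with a median of 379 in MDS. AML 4 and AML 1 were the highest of the 12 and AML 3 the lowest. AML 4, with the highest Itgal, had an Itgb2 level below that of every MDS library, so the chains of LFA-1 parted there. The sum of 10 T and NK cell markers was 210, 1139 and 2369 in AML 1, 4 and 5, 373 in AML 6, 99.7 and 105 in AML 2 and 3, and 71.8 to 193 in MDS; its part was not tested. AML with ENU averaged 562 ± 242 (n = 3) and AML without ENU 267 ± 306 (n = 2; SD). The log2 change was 1.72 ± 0.74 (SE; limma adjusted p = 0.364), 0.11 without AML 3 and 3.34 without AML 2. The groups overlapped. In AML against MDS the log2 change was -0.21 (95% interval -1.35 to 0.94), and without AML 3 it was 0.33, the opposite sign.

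In stromal cells, where Ptprc, the leukocyte marker CD45, was at 0.0565 to 1.29 TPM, Itgb2 gave 1.12, 3.18 and 1.53 TPM in ENU cells and 0.622, 2.51 and 2.24 TPM in mock cells. Itgal stayed at 0.635 to 0.889 TPM in ENU cells and 0.295 to 1.29 TPM in mock cells and was not tested. ENU 2 and mock 2 had the highest Itgb2 of their groups and also the highest Ptprc, Laptm5 and Lcp1, 3 of the 7 pan-leukocyte markers. The sum of all 7 was 267 to 512 TPM in ENU cells and 227 to 552 TPM in mock cells, most of it from Arhgdib, which gave 237 to 510 and 226 to 546 TPM in those groups. Cd52, another of the 7, was at 0 in ENU 3. The part of leukocyte RNA in the Itgb2 values was not tested. The log2 change of Itgb2 was 0.09 ± 0.41 (SE), within the spread between libraries.

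**Figure D2:**
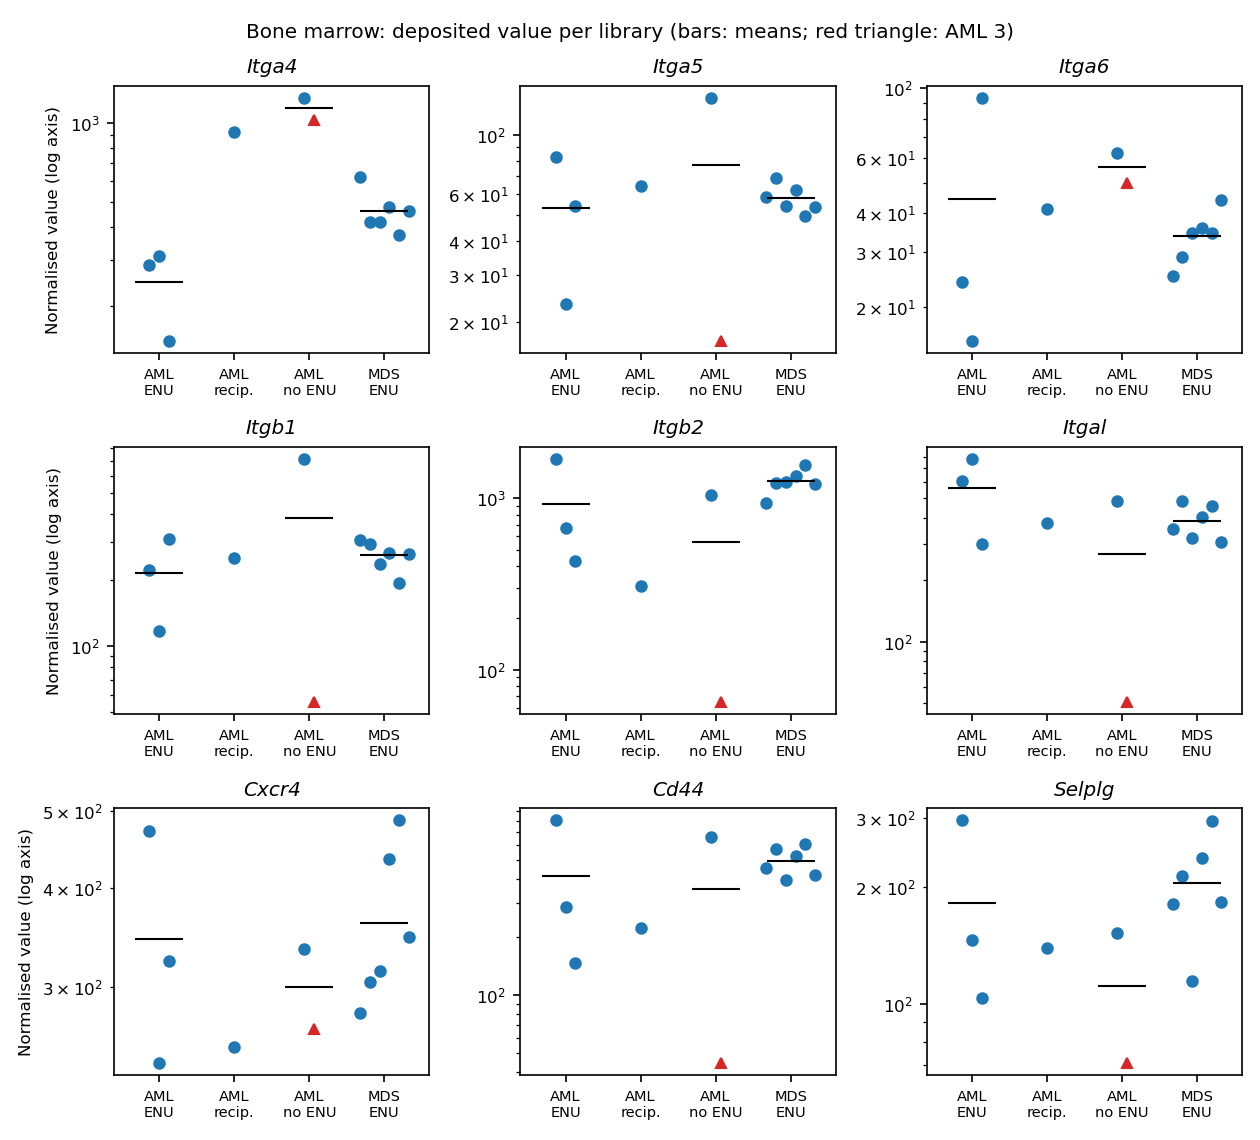
Deposited normalised value of each gene in the 12 marrow libraries on a log axis, with AML split by ENU exposure (donor and recipient, recipient alone, none) and MDS on the right; bars are group means and the red triangle is AML 3. Itga4 lies at 147 to 309 in AML with ENU, below 1026 and 1243 in AML without ENU, while AML 3 is the lowest library for 6 of the 9 genes.

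Itga4 (chr2:79255426-79333123, plus strand) encodes the alpha4 chain, which pairs with beta1 in VLA-4 and with beta7 in the gut-homing integrin. With all libraries it was the only member that passed between AML with ENU and AML without ENU. Its normalised values were 286, 309 and 147 in AML with ENU in donor and recipient, 923 in AML 6 with ENU in the recipient alone, and 1243 and 1026 in AML without ENU. In MDS, all with ENU, they ran between 373 and 624 with a median of 439. The 3 libraries of AML with ENU were the lowest of the 12 and the other 3 AML libraries the highest, with MDS between them. AML with ENU averaged 247 ± 87.6 (n = 3) and AML without ENU 1134 ± 153 (n = 2; SD), a log2 change of -2.26 ± 0.34 (SE; 95% interval -3.01 to -1.51) with a limma adjusted p of 0.0323. The groups did not overlap, and 6.69% of all genes were likewise lower without overlap in this comparison of 3 libraries with 2. edgeR on recovered reads gave -2.20 with an adjusted p of 0.0485.

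The call rested on the spread of all 12 marrow libraries: with the AML libraries fitted alone, the same log2 change of -2.26 had an adjusted p of 1.0, and with AML 6 added to the exposed group it was -1.77 with an adjusted p of 0.235. Leaving out any of the 5 compared libraries kept the call, with changes of -2.46 to -1.92 and adjusted p of 0.0048 to 0.0499. In AML against MDS without regard to exposure, Itga4 averaged 656 ± 462 and 461 ± 87.4 (SD, n = 6 each), for a log2 change of 0.13 (95% interval -0.90 to 1.16). AML with ENU alone stood at -0.95 ± 0.25 (SE) relative to MDS, with an adjusted p of 0.109 in limma.

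Other readouts differed between the same AML libraries. Kit, one of 7 genes of the LSK gate, was at 46.2, 41.0 and 54.1 in AML 1, 4 and 5, 375 in AML 6, and 81.6 and 217 in AML 2 and 3. The sum of the 7 gate genes was 143 to 211 in AML with ENU, 600 in AML 6, 259 and 289 in AML without ENU, and 208 to 358 in MDS, with none at 0. The sum of 8 B cell markers was 53.2 to 86.6 in AML with ENU, 59.1 in AML 6, 99.4 and 2682 in AML 2 and 3, and 96.5 to 163 in MDS. The T and NK cell sums above were also higher in each AML library with ENU than in either without. The part of cell makeup in the Itga4 result was not tested.

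The beta partners of alpha4 did not share its order. Itgb1 (chr8:128685654-128733200, plus strand), the beta1 chain common to the VLA integrins, gave 222, 117 and 307 in AML with ENU, 253 in AML 6, 714 and 55.5 in AML without ENU, and 194 to 306 with a median of 265 in MDS. The highest and the lowest of the 12 libraries were thus the 2 AML libraries without ENU, and the log2 change between exposed and unexposed AML was 0.00 (95% interval -1.78 to 1.78). Itgb7 was at 240, 462 and 58.7 in AML with ENU, 222 in AML 6, 409 and 3.68 in AML without ENU, and 81.5 to 197 in MDS. AML 3, which had the second highest Itga4, had the lowest Itgb1 and the lowest Itgb7 of the 12.

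The 2 unexposed AML libraries pulled several values of the exposure comparison opposite ways. Without AML 2, 5 members passed in limma: Itga4 at -2.12, Itgb1 at 1.83, Itgb2 at 3.58, Itgal at 3.34 and Cd44 at 2.84, with adjusted p of 0.000774 to 0.0146. That fit sets 3 exposed libraries against AML 3 alone, assumes that AML 3 varies like the other groups, and called 2559 of 11275 genes. Without AML 3, which leaves AML 2 alone under the same assumption, Itga4 was at -2.40 and passed, while Itgb1 was at -1.83, Itgb2 at -0.40, Itgal at 0.11 and Cd44 at -1.03, and none of these 4 passed. The direction for Itgb1, Itgb2 and Cd44 thus depended on which unexposed library was kept, and for Itga4 it did not.

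In LSK cells Itga4 showed no order by genotype or exposure. It gave 23.8, 18.4 and 22.2 in EAP with ENU, 10.5, 27.4 and 18.3 in EAP, 19.4, 27.1 and 9.78 in transplanted WT, and 38.1, 11.5 and 37.7 in WT. EAP and transplanted WT averaged 18.7 ± 8.49 and 18.7 ± 8.67 (SD, n = 3 each), for a log2 change of 0.01 (95% interval -1.09 to 1.11). EAP with ENU differed from EAP by 0.27 ± 0.50 (SE), and transplanted WT from WT by -0.54 ± 0.50 (SE). Without the 3 libraries low in long transcripts, transplanted WT differed from WT by -0.70 ± 0.23 (SE; limma adjusted p = 0.112). In stromal cells Itga4 was near the floor of the table at 1.00 to 1.20 TPM in ENU cells and 0.625 to 1.33 TPM in mock cells.

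Itgb1 varied least among the EAP with ENU libraries relative to its level. It gave 158, 160 and 160 in EAP with ENU, 90.4, 192 and 156 in EAP, 153, 160 and 155 in transplanted WT, and 228, 179 and 212 in WT. All 3 transplanted WT libraries lay below all 3 WT libraries, with means of 156 ± 3.78 and 207 ± 24.8 (SD, n = 3 each) and a log2 change of -0.40 ± 0.26 (SE; limma adjusted p = 0.814). In that comparison 8.42% of all genes were lower in transplanted WT without overlap. Without the 3 libraries low in long transcripts the change was -0.49 (adjusted p = 0.0669). In stromal cells Itgb1 was the most abundant member, at 884, 970 and 817 TPM in ENU cells and 786, 842 and 760 TPM in mock cells. These overlapped, and the log2 change was 0.16 ± 0.12 (SE; 95% interval -0.14 to 0.46; adjusted p = 1.0 in limma). Within each library number the ENU value was the higher, in 3 of 3 pairs, and with the number as a block the change was 0.16 ± 0.076 (SE; limma adjusted p = 0.531).

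Itga5 (chr15:103344286-103366763, minus strand), the fibronectin receptor alpha chain, gave 37.8, 38.5 and 34.9 in EAP with ENU, 10.4, 53.7 and 39.4 in EAP, 34.1, 38.1 and 30.7 in transplanted WT, and 34.1, 20.9 and 29.9 in WT. EAP spanned the highest and the lowest of the 12 libraries, and no LSK comparison separated the groups. In marrow it was 82.5, 23.4 and 54.1 in AML with ENU, 64.2 in AML 6, 137 and 17.0 in AML without ENU, and 49.8 to 68.7 with a median of 56.5 in MDS. Here too AML 2 was the highest and AML 3 the lowest, as for Itgb1. AML averaged 63.0 ± 43.8 and MDS 57.9 ± 6.79 (SD, n = 6 each), with a log2 change of -0.19 (95% interval -1.09 to 0.71) that turned to 0.11 without AML 3. In stromal cells Itga5 gave 149, 129 and 173 TPM in ENU cells and 208, 124 and 150 TPM in mock cells, a log2 change of -0.07 (95% interval -0.60 to 0.47).

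Itga6 (chr2:71745616-71858416, plus strand), the laminin receptor alpha chain also known as the stem cell marker CD49f, gave 39.9, 40.8 and 43.3 in EAP with ENU, 38.2, 66.9 and 49.1 in EAP, 39.5, 26.7 and 49.7 in transplanted WT, and 33.3, 53.4 and 50.1 in WT. EAP averaged 51.4 ± 14.5 and transplanted WT 38.6 ± 11.5 (SD, n = 3 each), for a log2 change of 0.41 ± 0.29 (SE; limma adjusted p = 1.0). Without the 3 libraries low in long transcripts the log2 change was 0.80 ± 0.25 (adjusted p = 0.321). In marrow Itga6 was the member with the lowest level per length, at 24.1, 15.6 and 93.0 in AML with ENU, 41.1 in AML 6, 61.9 and 49.8 in AML without ENU, and 25.1 to 44.0 with a median of 34.5 in MDS. AML 5 and AML 4, both with ENU, were the highest and the lowest of the 12, so exposure did not order the values. In stromal cells Itga6 gave 34.5, 26.2 and 70.6 TPM in ENU cells and 27.2, 28.5 and 58.2 TPM in mock cells, with the library numbered 3 highest in each group, and the log2 change was 0.16 ± 0.45 (SE).

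**Figure D3:**
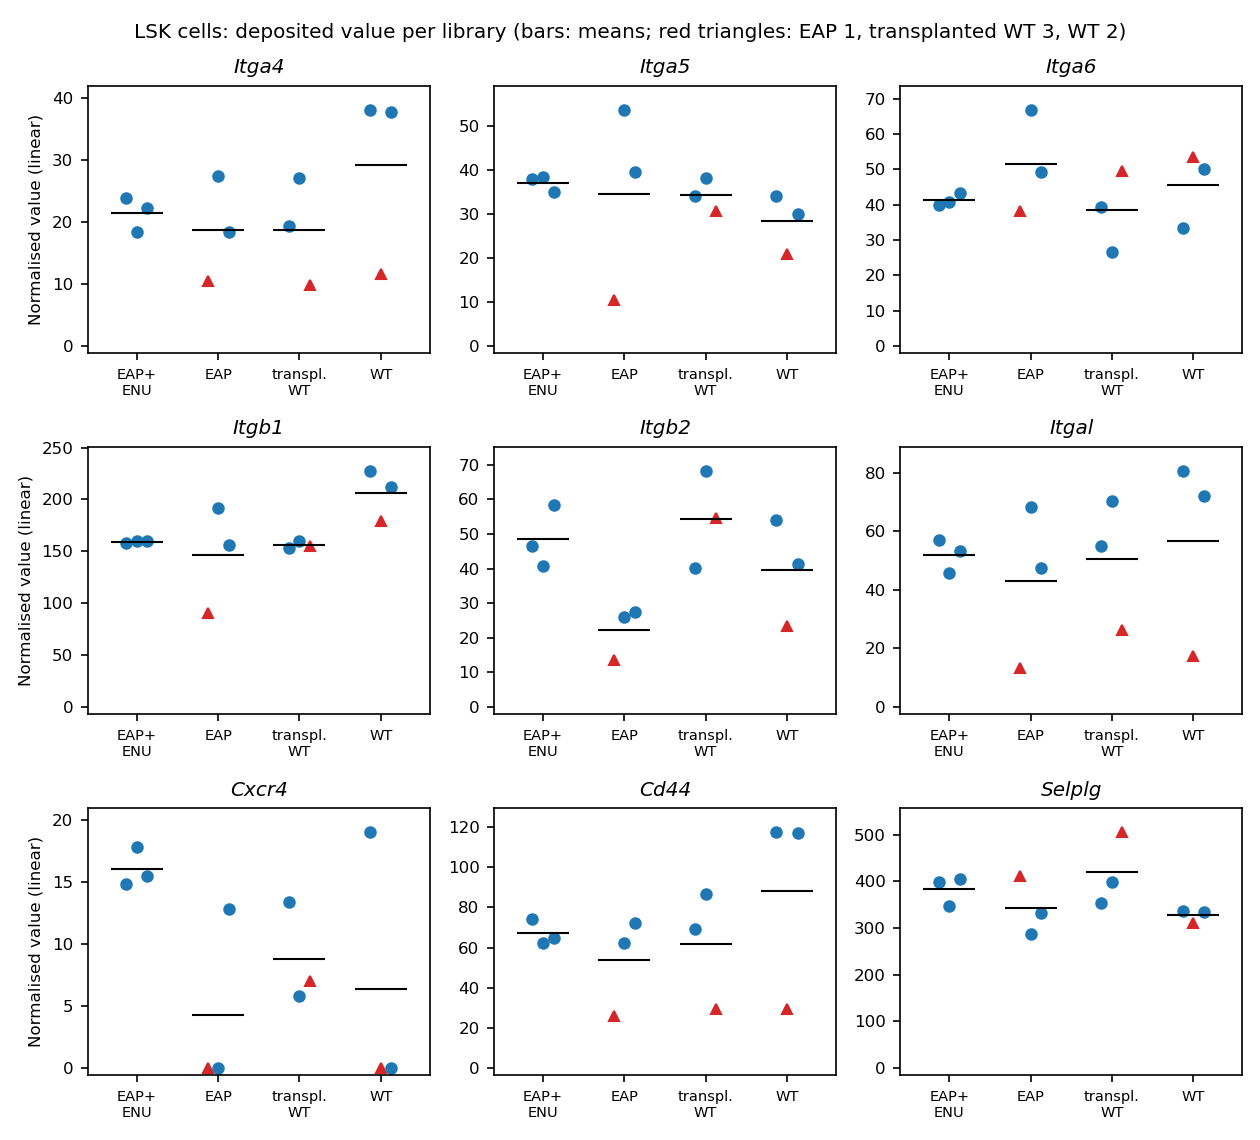
Deposited normalised value of each gene in the 12 LSK libraries on linear axes, in the order EAP with ENU, EAP, transplanted WT and WT; bars are means of 3 libraries and red triangles are EAP 1, transplanted WT 3 and WT 2, the libraries low in long transcripts. The EAP libraries lie lowest for Itgb2 at 13.6 to 27.4 apart from WT 2 at 23.3, and Cxcr4 reads near 0 in 4 libraries.

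Cxcr4 (chr1:128588199-128592293, minus strand) gave 14.9, 17.9 and 15.5 in EAP with ENU, 0.00132, 0.00113 and 12.9 in EAP, 13.4, 5.84 and 7.06 in transplanted WT, and 19.1, 0.00119 and 0.000789 in WT. Of the 12 LSK libraries, 4 were thus near 0 while the other 8 lay between 5.84 and 19.1, and the near-0 libraries belong to EAP and WT. Such gaps also occur elsewhere in that table: 77 of 9438 genes with a median of at least 5, or 0.816%, had a value under 0.01 in at least 1 library. Whether the near-0 values are failed estimates was not tested, so the group means of Cxcr4 carry little weight. All 3 EAP with ENU libraries lay above all transplanted WT libraries. They also lay above all 3 EAP libraries, as they did for 6.68% of all genes. Their log2 change against EAP was 2.83 ± 1.17 (SE; limma adjusted p = 0.909), and 0.210 to 1.0 over 14 alternatives. Against transplanted WT, a group with no near-0 value, it was 0.88 ± 1.17 (SE; adjusted p = 1.0), and 9.9% of all genes were higher in EAP with ENU without overlap.

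In bone marrow Cxcr4 was the steadiest of the 9 genes. It gave 471, 240 and 323 in AML with ENU, 252 in AML 6, 334 and 266 in AML without ENU, and 278 to 487 with a median of 331 in MDS. The highest value was 2.03 times the lowest, against 4.18 to 26.1 times for the other members. AML averaged 314 ± 85.8 and MDS 361 ± 82.3 (SD, n = 6 each), for a log2 change of -0.21 (95% interval -0.64 to 0.23; limma adjusted p = 0.495). AML 3, the lowest library for 6 members, was not the lowest here, at 266. In stromal cells Cxcr4 was at most 8.53e-05 TPM in all 6 libraries.

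Cd44 (chr2:102811141-102901665, minus strand) gave 74.4, 62.1 and 64.7 in EAP with ENU, 25.9, 62.5 and 72.3 in EAP, 69.3, 86.6 and 29.5 in transplanted WT, and 118, 29.3 and 117 in WT. Each of the 3 values under 30 belongs to a library low in long transcripts. Cd44, Itgal and Itga4 shared this: in EAP 1, transplanted WT 3 and WT 2 they were at 25.9 to 29.5, 13.5 to 26.4 and 9.78 to 11.5, all below the other 9 libraries at 62.1 to 118, 45.8 to 80.8 and 18.3 to 38.1. The principal transcripts of these 3 genes measure 5614, 5195 and 9767 bases, the longest of the 9 members, against 1855 bases for Selplg. Itga5 and Itga6, at 4382 and 4310 bases, also reach 4000 bases, yet their values in the 3 libraries overlapped those in the other 9. Mbp, whose LSK values were most like those of Cd44 (Pearson r = 0.99), has a principal transcript of 638 bases. The part of transcript length in the values of Cd44, Itgal and Itga4 was not tested. Over the 12 LSK libraries, which share this shift, the log2 values of Itga4 and Cd44 had a Pearson r of 0.95, those of Itgal and Cd44 0.94, and those of Itga4 and Itgal 0.92. Without the 3 libraries, transplanted WT lay below WT by 0.59 ± 0.15 (SE) for Cd44 on the log2 scale, with an adjusted p of 0.0615 in limma, in a fit of 2 libraries a group that called 490 genes where all libraries gave 3. With all libraries, the log2 change of Cd44 in transplanted WT against WT was -0.39 ± 0.57 (SE; adjusted p = 0.969).

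**Figure D4:**
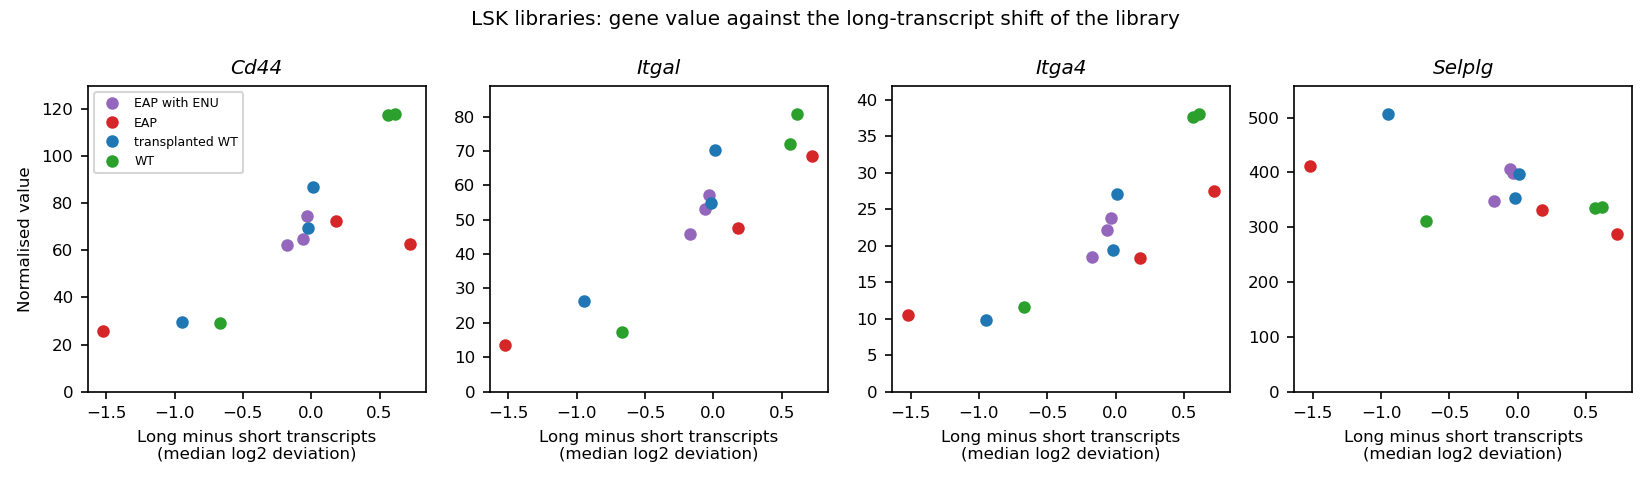
Normalised value of Cd44, Itgal, Itga4 and Selplg in the 12 LSK libraries against the shift of long relative to short transcripts, in log2 units, of each library; colours are the 4 groups. The 3 libraries left of -0.5 hold the 3 lowest values of Cd44 (25.9 to 29.5), Itgal and Itga4, while for Selplg they range between 310 and 507.

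In bone marrow Cd44 gave 807, 286 and 146 in AML with ENU, 222 in AML 6, 661 and 44.4 in AML without ENU, and 395 to 610 with a median of 491 in MDS. AML 1 and AML 2 lay above all MDS libraries and the other 4 below them. AML averaged 361 ± 303 and MDS 496 ± 86.2 (SD, n = 6 each), for a log2 change of -0.99 (95% interval -2.22 to 0.24; limma adjusted p = 0.252). Without AML 3 it was -0.50 (adjusted p = 0.428) and without AML 1 it was -1.33 (adjusted p = 0.085). Its values moved with those of Itgb2, at a Pearson r of 0.96 over log2 values in 12 libraries that share the AML spread. AML 1 and AML 2 also had the highest sums of 10 monocyte and macrophage markers, 11925 and 17063, against 97.3 to 3062 in the other AML libraries and 2823 to 7127 in MDS; no marker was at 0, and their part was not tested. In stromal cells Cd44 gave 211, 176 and 266 TPM in ENU cells and 202, 176 and 205 TPM in mock cells, a log2 change of 0.14 (95% interval -0.27 to 0.56).

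Selplg (chr5:113818536-113832644, minus strand) had the highest level per length in LSK cells and the smallest spread there, with 1.76 times between the lowest and the highest library. It gave 398, 348 and 405 in EAP with ENU, 411, 288 and 332 in EAP, 353, 398 and 507 in transplanted WT, and 337, 310 and 335 in WT. All transplanted WT libraries lay above all WT libraries, with means of 419 ± 79.2 and 327 ± 14.8 (SD, n = 3 each) and a log2 change of 0.34 ± 0.22 (SE; limma adjusted p = 0.819). Without the 3 libraries low in long transcripts it was 0.16 (adjusted p = 0.548). In that comparison 7.71% of all genes were higher in transplanted WT without overlap. In marrow Selplg gave 296, 146 and 104 in AML with ENU, 139 in AML 6, 152 and 70.8 in AML without ENU, and 115 to 295 with a median of 198 in MDS. AML 1 lay apart from the other AML libraries and level with the highest MDS library. The log2 change in AML against MDS was -0.51 ± 0.31 (SE; adjusted p = 0.280). In stromal cells Selplg was at 0.241 to 1.06 TPM in ENU cells and 0.274 to 0.575 TPM in mock cells and was not tested.

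The order of levels per length of principal transcript differed among the sources, each within its own table. In LSK cells the mean normalised value per kilobase was 199 for Selplg, 43.8 for Itgb1, 13.9 for Itgb2, 12.04 for Cd44, 10.3 for Itga6, 9.75 for Itgal, 7.66 for Itga5, 4.92 for Cxcr4 and 2.25 for Itga4. The ranges of Selplg, Itgb1 and Itgb2 over the 12 libraries did not overlap, and each later neighbour overlapped the next. In bone marrow the order of values per kilobase was Itgb2 at 329, Cxcr4 at 187, Selplg at 95.7, Itgal at 79.1, Cd44 at 76.4, Itgb1 at 70.6, Itga4 at 57.2, Itga5 at 13.8 and Itga6 at 9.44, and all neighbours overlapped. Cxcr4 stood second in marrow and eighth in LSK cells. In stromal cells Itgb1 at 843 TPM stood clear of Cd44 at 206 and Itga5 at 156, which overlapped each other and stood clear of Itga6 at 40.8 TPM. Itgb2 at 1.87, Itga4 at 1.06, Itgal at 0.733 and Selplg at 0.469 TPM followed at under 5 TPM in every library, with Cxcr4 last. The chains high in stromal cells were thus beta1, alpha5 and alpha6, with CD44.

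**Figure D5:**
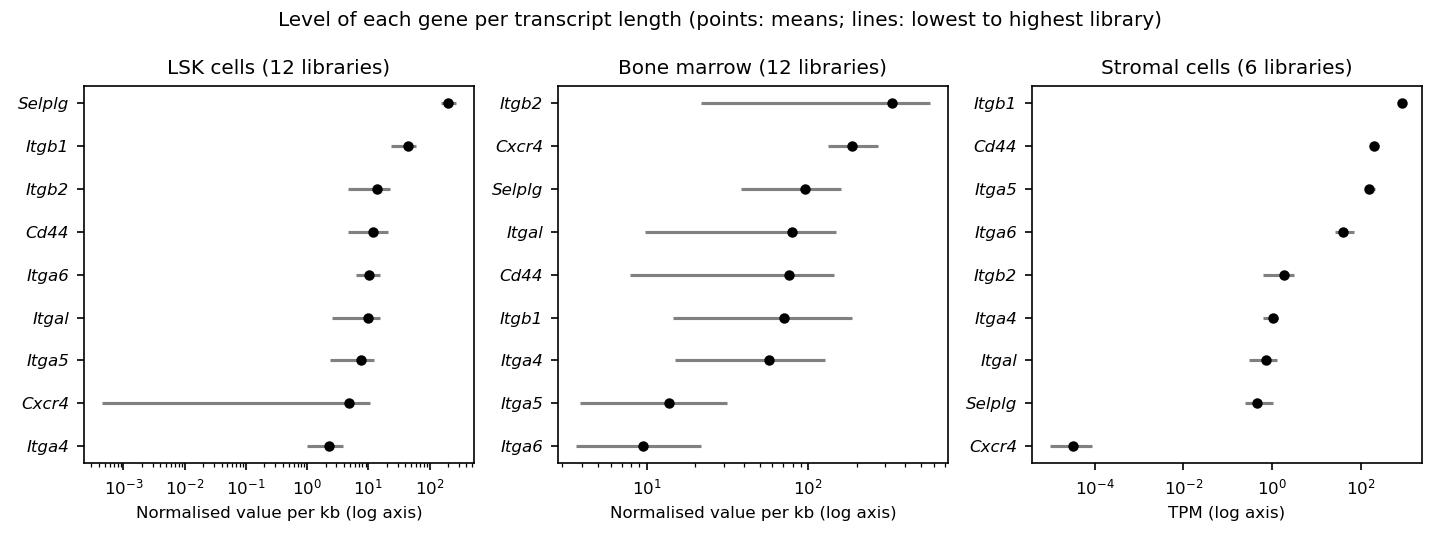
Mean level per transcript length of each gene (points) with the lowest and highest library (lines) on log axes, in LSK cells and bone marrow as normalised value per kilobase and in stromal cells as TPM. Selplg leads in LSK cells at 199, Itgb2 in marrow at 329 and Itgb1 in stromal cells at 843 TPM; the 3 scales are not comparable with each other.

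Genes that work with the 9 members were followed in 8 lists. In EAP against transplanted WT none of the tested genes passed in limma: 7 further alpha chains, 4 beta chains, 28 integrin activators and adaptors, 12 ligands, 25 genes of CXCR4 signalling, 14 enzymes of selectin ligand carbohydrates, 10 CD44 partners and 20 other homing and egress receptors. The list medians of the log2 change ran between -0.37 for beta chains and -0.05 for ligands, against -0.02 over all genes. The genes with the smallest p were Itgax at -1.18, Itgad at -0.73 and Itga9 at -0.34 among alpha chains, Itgb3 at -0.73, Itgb7 at -0.52 and Itgb5 at 0.59 among beta chains, and Skap1 at -0.82, Lyn at -0.52 and Fyb at 0.42 among activators. They were Jam2 at 1.05, Vcam1 at -0.90 and Mif at -0.70 among ligands, and Rgs1 at 0.96, Rgs3 at 0.53 and Cd164 at -0.35 in CXCR4 signalling. C1galt1 at 0.84, St3gal3 at -0.92 and Gcnt1 at -0.89 led the carbohydrate enzymes, Hmmr at 0.44, Cd74 at -1.05 and Srgn at -0.50 the CD44 partners, and Cxcr2 at 1.05 and Cxcr3 at -1.44, with Jam2 again, the other homing receptors. The smallest adjusted p among them was 0.727, for Cxcr2. In transplanted WT against WT, 1 of 12 ligands passed: Selp, the P-selectin bound by the product of Selplg, rose by 3.02 ± 0.29 (SE) on the log2 scale, to 131 ± 18.4 in transplanted WT, against 15.6 ± 4.35 in WT (SD, n = 3 each), with a limma adjusted p of 0.00385 and no overlap. Over all genes, 0.0256% passed in that comparison. The call of Selp was lost when those 2 groups were fitted alone (limma adjusted p = 0.158). The sum of 7 markers of megakaryocytes and platelets, which also make P-selectin, was 252 to 263 in transplanted WT and 75.7 to 141 in WT, with none at 0, and its part in the Selp result was not tested. No list gene passed in the other LSK comparisons.

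In AML against MDS, where 3.2% of all genes passed, 3 of 16 ligands did. Vcam1, the ligand of alpha4 beta1, fell to 23.5 ± 12.8 in AML, against 69.6 ± 15.02 in MDS (SD, n = 6 each), by 1.76 ± 0.43 (SE) on the log2 scale (limma adjusted p = 0.0473). All 6 AML libraries, at 3.92 to 37.7, lay below all MDS libraries at 46.9 to 91.3. Icam4, an erythroid ligand of integrins, fell to 5.87 ± 6.31 in AML, against 33.6 ± 19.2 in MDS, by 2.73 on the log2 scale (adjusted p = 0.0423), and Icam2, a ligand of LFA-1, rose to 30.2 ± 5.34 in AML, against 13.6 ± 5.24 in MDS, by 1.16 (adjusted p = 0.0423). Neither pair of groups overlapped. The sum of 5 measured erythroid markers was 15.6 to 4064 in AML and 5567 to 18543 in MDS. The sum of 7 measured mesenchymal markers was 106 to 1105 in AML and 47.8 to 95.5 in MDS, without overlap. It was highest in AML 5 at 1105 and AML 4 at 518, which also had the highest T and NK cell sums, 2369 and 1139. Which cells gave the mesenchymal sum was not tested. The 3 measured endothelial markers Cdh5, Egfl7 and Kdr summed to 8.9 to 25.9 in AML and 8.54 to 16.8 in MDS, which overlapped. None of these markers was at 0, and the part of such cells in these results was not tested.

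Among the other homing receptors 2 of 18 passed, Cd47 and Pecam1. Cd47, whose product signals against engulfment, fell to 235 ± 78.9 in AML, against 507 ± 59.8 in MDS (SD, n = 6 each). Its log2 change was -1.17 (limma adjusted p = 0.0374). The adhesion molecule Pecam1 rose to 115 ± 44.5 in AML, against 39.2 ± 12.2 in MDS. Its log2 change was 1.45 (limma adjusted p = 0.0435), with AML 1 at 36.1 inside the MDS range. Pecam1 is also an endothelial marker and made up most of the sum of the 4 with it included, which was 49.1 in AML 1, 116 to 191 in the other AML libraries and 35.9 to 77.05 in MDS. Over all genes, 3.2% passed in AML against MDS. B4galt1, a galactosyltransferase, was 1 of 13 carbohydrate enzymes to pass and fell to 124 ± 36.6 in AML, against 259 ± 24.5 in MDS (log2 change -1.10, adjusted p = 0.0336). Leaving out any 1 MDS library, AML 5 or AML 6 ended the call of each of these 6 genes, with adjusted p of 0.0631 to 0.105, and so did the fit of AML 1, 4 and 5 against MDS (0.108 to 0.138). Pecam1 was also lost without AML 3 (0.0582) or AML 4 (0.0611) and with a pseudocount of 0.1 (0.0506), Vcam1 without AML 4 (0.0585), with that pseudocount (0.0565) and in edgeR (0.0511), and Icam4 in edgeR (0.0575).

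None of 9 further alpha chains, 3 beta chains, 30 activators, 27 CXCR4 signalling genes or 11 CD44 partners passed in AML against MDS. Arrb1 and Arrb2, the arrestins that take CXCR4 off the surface, came near, at log2 changes of -1.76 (limma adjusted p = 0.0547) and -1.67 (adjusted p = 0.0676), with Grk6, a kinase that marks such receptors, at -0.75. The others with the smallest p were Itga10 at 0.77, Itgam at -2.03 and Itgax at -0.96, Itgb3 at -0.89, Itgb5 at -0.22 and Itgb7 at -0.28, Parvb at -1.61, Lims1 at -0.76 and Skap2 at -0.89, Gcnt1 at -1.39 and Tpst1 at 0.76, Adam10 at -0.66, Cd74 at -1.41 and Srgn at -0.98, and Cxcr2 at -2.73. Of the 8 lists, 7 had a median below 0, between -0.47 and -0.28, and the ligands had 0.24, against 0.04 over all genes.

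In AML with ENU against AML without ENU, where 0.408% of all genes passed, 1 list gene did. Itgb3, the beta3 chain of platelet and vitronectin integrins, rose to 62.8 ± 11.4 in AML with ENU (n = 3), against 7.29 ± 7.67 in AML without ENU (n = 2; SD), by 3.33 ± 0.53 (SE) on the log2 scale (limma adjusted p = 0.0343). AML 6 had 79.8 and MDS 35.5 to 69.9, so the unexposed AML libraries at 12.7 and 1.87 were the low ones. The sum of 6 measured megakaryocyte and platelet markers was 38.9, 40.6 and 153 in AML 1, 4 and 5, 469 in AML 6, 34.6 and 4.54 in AML 2 and 3, and 65.6 to 105 in MDS, with none at 0. AML 6 and AML 3 were highest and lowest in both, and the part of such cells was not tested. The call was lost without AML 4 (adjusted p = 0.0872) or AML 5 (0.0517), with the AML libraries alone (1.0) and in edgeR (0.0784).

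In stromal cells no gene of the 8 lists passed in limma, and list medians lay between -0.23 and 0.15, against -0.01 over all genes. The smallest p belonged to Itgbl1 at a log2 change of -1.23, Itgb8 at -0.55 and Itgb4 at -0.29, Itga2b at -0.51, Itga1 at -0.69 and Itga3 at 0.94, Fyb at 0.83, Rap1b at 0.27 and Syk at 0.44, Mif at 0.30, Lama2 at -0.91 and Icam5 at -0.45, Gnai1 at 0.80, Rgs16 at 0.82 and Cd164 at -0.25, Tpst1 at -0.60, St3gal6 at 0.43 and Glg1 at -0.10, Msn at 0.26, Ezr at 0.53 and Hyal2 at -0.09, and Cd9 at 0.22, C5ar1 at 0.52 and Cd47 at -0.15.

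The genes whose log2 values were most like those of each member over 12 libraries are given by Pearson r, as a description of libraries that share their spread. In bone marrow these were Slc16a3 (0.99) and App (0.99) for Itgb2, Shisa5 (0.98) and Rinl (0.98) for Itgal, Chpt1 (0.97) and Inpp5f (0.96) for Itgb1, and Cfp (0.99) and Myo1f (0.98) for Cd44. They were Plppr3 (0.97) and Pak1 (0.96) for Itga5, Trak1 (0.93) and Fbp1 (0.91) for Itga6, Btg1 (0.93) and Rnf144a (0.92) for Selplg, Tpgs1 (0.90) and Oaz2 (0.89) for Cxcr4, and Rnf135 (0.89) and Ankle2 (0.87) for Itga4. The members were also alike among themselves there, with r of 0.94 for Itga5 and Itgb1 and 0.86 for Cd44 and Selplg. In LSK cells the most like were Zfp949 (0.97) and Osbpl8 (0.96) for Itga4, Smtn (0.98) and Telo2 (0.98) for Itga5, Rnf103 (0.91) and Zbtb14 (0.88) for Itga6, Nup160 (0.97) and Cog3 (0.96) for Itgb1, and Ganab (0.90) and P2rx7 (0.90) for Itgb2. They were Uvrag (0.99) and Wipi2 (0.98) for Itgal, Mbp (0.99) and Slc38a2 (0.99) for Cd44, Eif4h (0.90) and Cpa3 (0.89) for Selplg, and Gemin8 (0.87) and Oxa1l (0.86) for Cxcr4. No like gene was named for the same member in both tables.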

How the data were processed

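RNA was taken with TRIzol and sequenced from TruSeq Stranded mRNA libraries, per the labels. The submitters' processing notes list the tools edgeR, TopHat, SAMtools, FastQC and bcl2fastq, the build mm10 and no versions; which program counted reads, and on which annotation, is not stated there. The deposited LSK and bone marrow tables are a normalised signal per gene: LSK totals of 808377 to 1437201 show that they are not plain CPM. The authors deposited the stromal table in TPM. In the marrow table, 155 rows that repeated a gene under an alias were merged, and reads were recovered from the step between values (at least 99.99% of values within 0.05 of a whole read).

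Each comparison was tested with limma 3.58.1 (lmFit, contrasts.fit, eBayes with trend; R 4.3.3) on log2(value + 1), with Benjamini-Hochberg adjustment over every gene reaching 1 in a number of libraries equal to the size of the smaller group. This scale understates the change of low genes. Normalised values rather than counts had been assumed for both tables, and the test was kept. edgeR 4.0.16 (quasi-likelihood) was run on recovered marrow reads and called 448 genes in AML against MDS and 15 in AML with ENU against AML without ENU. The tests were also run on data simulated from these values, with results not given here. Other settings tried were median-of-ratios rescaling, a smaller pseudocount of 0.1, dropping the filter, a replicate block, leaving out libraries, other sets of groups and a sex term in stromal cells. After seeing the data, a term for the long-transcript shift of LSK libraries and a fit without 3 of them were added. Libraries with a mean correlation more than 3 scaled median absolute deviations below the median of their table were said to stand apart. In stromal cells the deviations of same-numbered libraries correlated at 0.50, 0.67 and 0.72, though the labels do not pair them. The block by library number was run as an alternative only. Stromal changes given without mention of the block come from the fit without it. For Itga6 in stromal cells the SE was 0.45 without the block and 0.11 with it.

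Levels per kilobase use principal transcripts of the GENCODE annotation of GRCm38. From each list, up to 3 genes with the smallest p in EAP against transplanted WT, AML against MDS and ENU against mock are named; Selp, and the marker genes and partner chains given by library, were named after their values were seen. Per member, the 2 most correlated genes with a mean of at least 5 are named. The members and lists were chosen with earlier results of these data known. Python 3.11.15, pandas 2.3.3, SciPy 1.17.1 and matplotlib 3.10.9 were used.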

Additional observations from a re-analysis of the deposited data

Results flagged for a closer look

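Of 18 groups of 6 libraries examined for a single distant value, 1 was marked: Selplg in AML 1 was the highest of the 6 AML libraries at 296, and its gap to the next, over the range of the group, was 0.640 against a limit of 0.625. About 1 in 20 groups would be marked by chance. The other AML libraries lay between 70.8 and 152, and the highest MDS library had 295.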

How the results depend on the processing

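The count of members that passed was 0 in the 4 LSK comparisons and the stromal comparison under every alternative run, the replicate block and both fits added after seeing the data included. In AML against MDS it was 0 under every alternative (0 with the replicate block) but 1, leave-one-out lowest 0 and highest 1: without AML 1, Itgb2 passed. In AML with ENU against AML without ENU it was 1 with all 12 libraries, 0 with the replicate block, 0 with AML 6 added to the exposed group, 0 with the AML libraries alone and 1 to 5 when 1 library was left out, the 5 without AML 2. The log2 change turned sign in at least 1 alternative for 35 of 60 pairs of a member and a comparison, none of them called after the turn; 3 of the 35 were beyond 0.5 with all libraries (Itgal in EAP with ENU against EAP, Itgb2 and Cd44 in AML with ENU against AML without ENU). Over all genes, AML against MDS gave 361 calls, 145 with a pseudocount of 0.1, 141 with the replicate block, 448 in edgeR, 0 with ENU matched and 0 to 2472 when 1 library was left out. AML with ENU against AML without ENU gave 46 calls, 108 with a pseudocount of 0.1, 15 in edgeR, 11 with AML 6 added, 0 with the block, 0 with the AML libraries alone and 14 to 2559 when 1 library was left out. Transplanted WT against WT gave 3 calls, 876 with a term for the long-transcript shift and 490 without the 3 libraries; the cause was not tested. In LSK cells and marrow the deviations of same-numbered libraries correlated at -0.64 to 0.33, nothing in the labels pairs them, and the replicate block is a setting only; with it Itga4 changed by -2.46 (adjusted p = 1.0) in AML with ENU against AML without ENU, Itgb3 lost its call there (adjusted p = 1.0), Vcam1 (0.0513), Cd47 (0.0625), Pecam1 (0.0837) and Icam2 (0.103) lost theirs in AML against MDS, and the calls over all genes were 0, 1, 0 and 1 in the 4 LSK comparisons, against 3, 2, 0 and 3 without it. In stromal cells, where same-numbered libraries correlated though the labels do not pair them, the block changed no call. The depth of the LSK and stromal libraries is unknown.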
